A study of Mus musculus with 4 samples.

Results

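The 9 genes described here are the Hedgehog ligands Shh, Ihh and Dhh, the receptors Ptch1 and Smo, the transcription factors Gli1, Gli2 and Gli3, and the ligand-binding inhibitor Hhip, found by exact symbol among the 49997 genes of the count tables. RNA was sequenced from explants of the mouse aorta-gonad-mesonephros region (AGM), the embryonic tissue in which blood stem cells arise, of the C57BL/6J strain. All 4 libraries came from explants cultured for 48 hours on membrane filters in a medium with hydrocortisone. In 2 libraries the explants had no treatment, and in the other 2 they were kept with 5 µM CCCP, a protonophore that dissipates the proton gradient across the inner mitochondrial membrane. By the growth protocol the embryos were E10.5 and E11.5; the series design mentions E10.5 only, and Kit-positive stem cells, whereas RNA was extracted from explants by the extraction protocol. The labels do not say whether libraries came from separate litters or cultures, so p-values measure the spread between these libraries, which may be technical.

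Hedgehog ligands are secreted proteins that bind Patched (Ptch1). In the absence of ligand Patched holds the membrane protein Smoothened (Smo) inactive, and on binding this hold is lifted at the primary cilium. Smoothened then turns the Gli factors from repressors into activators. Gli1, Ptch1 and Hhip are direct targets in most responding tissues and serve as a readout of the pathway, and Ptch1 and Hhip also restrain it. In the embryonic trunk Shh is made by the notochord, the floor plate and the gut endoderm, Ihh by gut endoderm and cartilage, and Dhh by Schwann cells, Sertoli cells and some endothelium, while the surrounding mesenchyme responds.

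The libraries held 37360968 to 48827826 counted reads. All 9 genes passed the filter on low counts that left 19837 genes. Expression is given as CPM, counts scaled to library size, and levels are compared between genes as RPKM, which also divides by exon length. Blood progenitor markers, the labelled cell type, summed to 130 to 172 CPM, against 3483 to 5990 CPM for 12 mesenchymal markers, so the libraries were mixed tissue. In such bulk RNA, fewer cells of a type and less RNA per cell cannot be told apart.

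Start-site sequences of Ptch1 and Hhip are shown because both are targets of the Gli factors and were highest in the same library. That library, untreated replicate 2, was also the highest for Gli1, Gli3 and Shh. The sequences are the 250 bases before 1 annotated start site per gene in the RefSeq promoter table (GRCm38.p6, the mm10 assembly), which held 7 of the 9 genes. The Ptch1 window is chr13:63565736-63565985 and the Hhip window chr8:80058009-80058258, both on the minus strand and written 5′ to 3′, with matches to the GC box GGGCGG on either strand in capitals. These starts differ from the outermost starts of the gene models behind the counts. That of Ptch1 lies 7725 bases inside the gene, so all 250 bases of the window are within the gene as counted, and 52 bases of the Hhip window are.
Ptch1: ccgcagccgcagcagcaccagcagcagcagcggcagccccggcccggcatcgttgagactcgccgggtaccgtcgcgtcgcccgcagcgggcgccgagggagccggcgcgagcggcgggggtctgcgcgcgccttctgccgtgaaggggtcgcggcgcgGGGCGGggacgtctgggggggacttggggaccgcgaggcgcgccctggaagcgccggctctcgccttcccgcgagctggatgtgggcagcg
Hhip: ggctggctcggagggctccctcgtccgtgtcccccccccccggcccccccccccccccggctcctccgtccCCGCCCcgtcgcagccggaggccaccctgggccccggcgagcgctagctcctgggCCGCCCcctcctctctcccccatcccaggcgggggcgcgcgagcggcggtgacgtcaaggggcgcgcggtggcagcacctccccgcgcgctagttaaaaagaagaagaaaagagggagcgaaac
The Ptch1 window holds 1 GC box and has a GC content of 78.4%, and the Hhip window holds 2 and has 76.0%. A GC box is in 32.7% of the 32851 windows of this length. The Gli consensus GACCACCCA, searched on both strands, is in neither window, with or without 1 mismatch. It is in 0.225% of all windows exactly and in 5.79% with up to 1 mismatch.

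Of the ligands, Shh was the most abundant in every library and the one that varied most. Shh (chromosome 5, 28456840 to 28467101) had 4.08 CPM in untreated replicate 1, 25.8 CPM in untreated replicate 2, 9.48 CPM in CCCP replicate 1 and 11.6 CPM in CCCP replicate 2. Both CCCP libraries thus lay between the untreated libraries, which were 6.34-fold apart. The exact 95% binomial intervals, which cover counting error only, ran from 3.54 to 4.67 CPM and from 24.2 to 27.5 CPM in the untreated libraries. The mean was 14.95 ± 15.4 CPM untreated and 10.53 ± 1.49 CPM in CCCP (SD, n = 2). On the log2 scale the difference, CCCP minus untreated, was -0.50 ± 0.742 (SE), and its adjusted p-value in edgeR was 0.775. Without untreated replicate 2 it was 1.40, and without untreated replicate 1 it was -1.29. The exons of Shh share 118 of 2865 bases with 9530036O11Rik on the other strand, which had 0 to 4 counts. Of the 50-base stretches in its GENCODE transcripts, 23.6% occur in transcripts of 9530036O11Rik or Gm26894, so the count of Shh is uncertain.

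Ihh and Dhh had low counts, and 24.2% and 10.9% of all genes tested had a lower mean RPKM. Ihh (chromosome 1, 74945315 to 74951672) was counted 96 and 64 times without treatment and 60 and 51 times with CCCP. In CPM these were 1.92 and 1.71 against 1.24 and 1.41. Both CCCP libraries were lower than both untreated libraries, while the counting intervals overlapped (1.32 to 2.19 CPM in untreated replicate 2, 1.05 to 1.85 CPM in CCCP replicate 2). Its log2 fold change was -0.46 ± 0.356 (SE; adjusted p in edgeR 0.566).

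Dhh (chromosome 15, 98881615 to 98898562) was counted 36 and 16 times without treatment and 86 and 31 times with CCCP, or at 0.719 and 0.428 against 1.77 and 0.855 CPM. CCCP replicate 1 stood highest and the other CCCP library was close to untreated replicate 1. At 1.19 ± 0.558 (SE), its log2 fold change was the largest of the 9 genes (adjusted p in edgeR 0.382). Without CCCP replicate 1 it was 0.57. Of the 50-base stretches in the GENCODE transcripts of Dhh, 22.2% occur in transcripts of Rhebl1 or Gm49442, so its count is uncertain too.

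Per length, Shh made up 65.3% and 93.4% of the summed RPKM of the 3 ligands in untreated replicates 1 and 2 and 82.2% and 86.9% in CCCP replicates 1 and 2. The summed ligand level was 2.18, 9.65, 4.02 and 4.65 RPKM in the same order. It was lowest and highest in the untreated libraries.

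Ptch1, the receptor that binds the ligands and a target of the pathway, was also highest in untreated replicate 2. Ptch1 (chromosome 13, 63508328 to 63573460) stood at 123 and 199 CPM without treatment and at 119 and 121 CPM with CCCP. Untreated replicate 2 stood alone, and the other 3 libraries lay within a few CPM of each other. The groups did not overlap, but the counting intervals of untreated replicate 1 (120.1 to 126 CPM) and CCCP replicate 2 (118 to 125 CPM) did. The group means were 161 ± 53.3 and 120.3 ± 1.63 CPM (SD, n = 2). The log2 fold change of -0.42 ± 0.224 (SE; adjusted p in edgeR 0.429) was 0.00 without untreated replicate 2 and -0.25 with the trend of fold changes with exon length removed.

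Smo, which carries the signal into the cell, showed a different order. Smo (chromosome 6, 29735497 to 29761366) stood at 154 and 172 CPM without treatment and at 202 and 187 CPM with CCCP. Both CCCP libraries were above both untreated libraries. The untreated replicates were closer to each other than for Ptch1 (1.11-fold apart against 1.61-fold). The CCCP replicates were further apart than for Ptch1 (SD 10.6 against 1.63 CPM). The log2 fold change of Smo was 0.26 ± 0.121 (SE; adjusted p in edgeR 0.382), and leaving out each library in turn gave 0.19 to 0.37. With the trend of fold changes with transcript GC content removed it was 0.10. The ratio of Ptch1 to Smo in RPKM was 0.563 and 0.816 without treatment and 0.415 and 0.457 with CCCP, lower in both CCCP libraries.

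**Figure D1:**
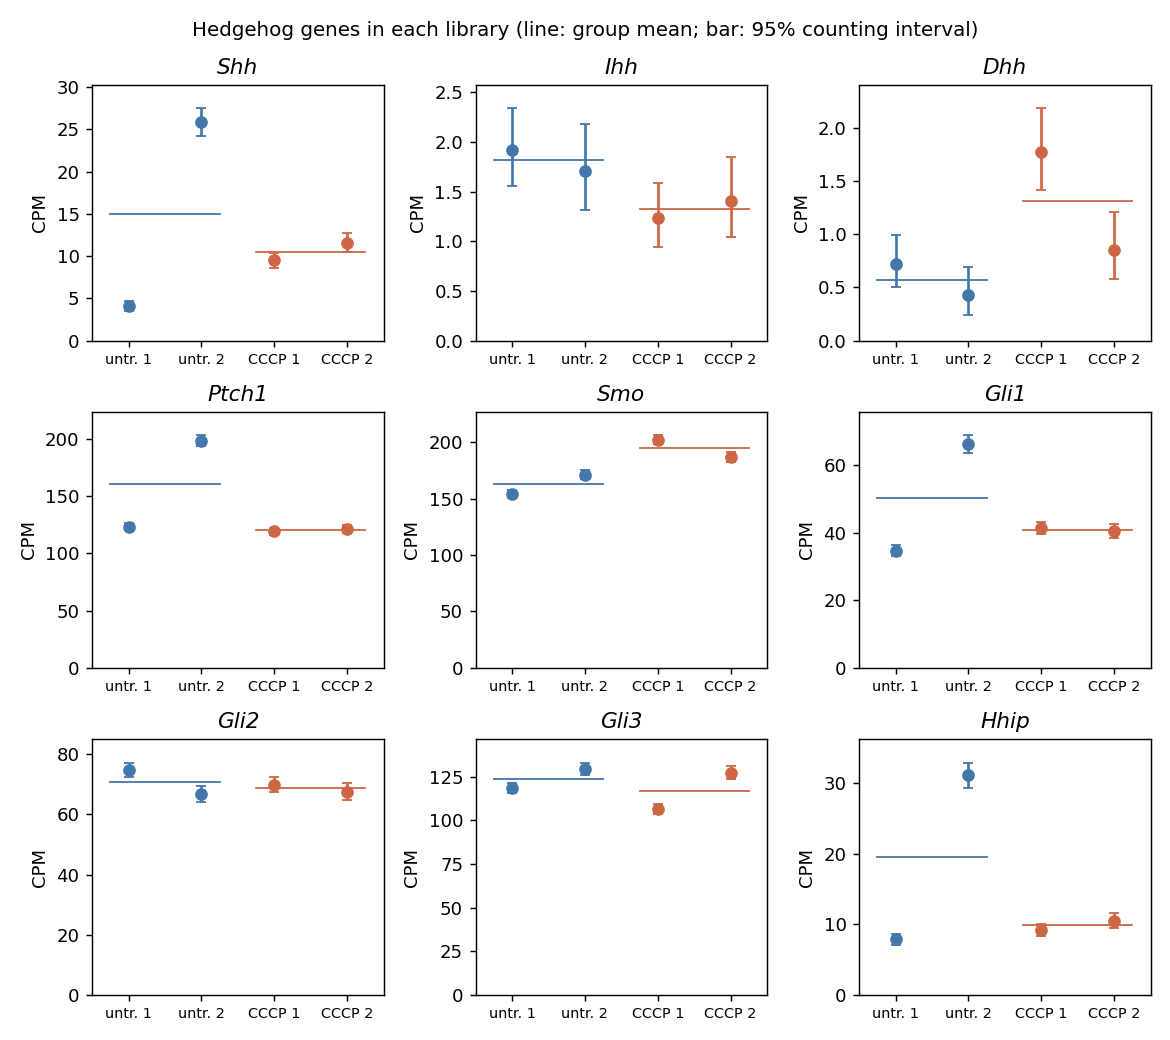
CPM of each of the 9 genes (vertical axes, each from 0) in untreated (blue) and CCCP (orange) libraries, with a line at the mean of each group and bars for the exact 95% counting interval. Shh, Ptch1, Gli1 and Hhip stand highest in untreated replicate 2, at 25.8, 199, 66.3 and 31.1 CPM. Gli3 is also highest there, at 129 CPM, but Gli2 and Gli3 differ little between libraries.

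Gli1 is the factor that is itself switched on by the pathway and acts as an activator. Gli1 (chromosome 10, 127329882 to 127341579) stood at 34.6 and 66.3 CPM without treatment and at 41.4 and 40.5 CPM with CCCP. As for Shh, both CCCP libraries lay between the untreated libraries, here near untreated replicate 1. The group means were 50.4 ± 22.4 and 40.9 ± 0.600 CPM (SD, n = 2). The log2 fold change of -0.30 ± 0.289 (SE; adjusted p in edgeR 0.647) was 0.27 without untreated replicate 2 and -0.47 with the GC trend removed. The exons of Gli1 share 66 of 3662 bases with Arhgap9 on the other strand, which had 85 to 150 counts against 1470 to 2478 for Gli1.

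Gli2 and Gli3, the factors that exist in activator and repressor forms, differed little between libraries. Gli2 (chromosome 1, 118834061 to 119054405) had 74.8 and 66.6 CPM untreated and 69.9 and 67.5 CPM in CCCP. Gli3 (chromosome 13, 15463723 to 15730026) had 118 and 129 CPM untreated and 107 and 127 CPM in CCCP. The groups overlapped for both, and the log2 fold changes were -0.04 ± 0.118 and -0.08 ± 0.135 (SE; adjusted p in edgeR 0.894 and 0.796). Both genes have long exons, and with the trend of fold changes with exon length removed the values were 0.16 and 0.13. With the GC trend removed Gli2 was at -0.20. The exons of Gli3 share 389 of 8517 bases with Gm6556 on the other strand, which had 102 to 248 counts against 4613 to 5923 for Gli3. Gli1 made up 43.5% of the summed RPKM of the 3 Gli genes in untreated replicate 2 and 28.9% to 34.7% in the other 3 libraries, while Gli3 made up 36.5% to 43.3%.

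Hhip, which binds ligands at the cell surface and keeps them from Patched, was again highest in untreated replicate 2. Hhip (chromosome 8, 79965850 to 80058060) stood at 7.85 and 31.1 CPM without treatment and at 9.17 and 10.503 CPM with CCCP. Untreated replicate 2 was 3.96-fold above untreated replicate 1 and 3.16-fold above the CCCP mean, while the CCCP mean was 1.25-fold above untreated replicate 1. The group means were 19.5 ± 16.4 and 9.84 ± 0.944 CPM (SD, n = 2). The log2 fold change of -0.98 ± 0.582 (SE; adjusted p in edgeR 0.472) was 0.36 without untreated replicate 2. With no filter on low counts edgeR gave Hhip an adjusted p-value of 0.00253 at a log2 fold change of -0.97, the sole call among the 9 genes in any fit made, where 3.43% of 32261 genes were called.

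Taking the genes as a group, 0 of the 9 passed an adjusted p-value of 0.05 by edgeR, as for 0% of the 19837 genes tested. The count was 0 at an unadjusted p under 0.05, which 14.6% of all genes reached, and 0 in DESeq2, which called 2.99% of all genes. Groups did not overlap for 4 of the 9 genes, against 48.8% of all genes tested: Dhh and Smo were higher in both CCCP libraries, as were 24% of all genes, and Ihh and Ptch1 lower, as were 24.8%. The log2 fold change was below 0 for 7 of the 9, with a median of -0.30 beside -0.01 over all genes tested. Without untreated replicate 2, 3 of the 9 were below 0 and the median was 0.27.

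**Figure D2:**
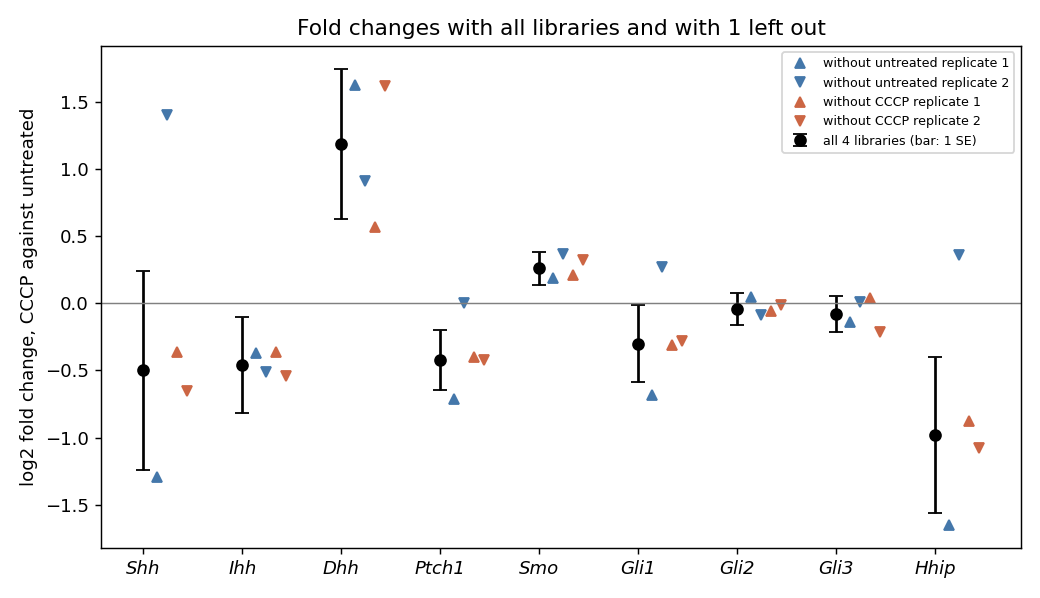
Log2 fold change of CCCP against untreated (vertical axis) for each gene, with all 4 libraries (black, bar for 1 standard error) and with each library left out in turn (triangles). Shh, Gli1, Hhip and Gli3 change sign without untreated replicate 2, to 1.40, 0.27, 0.36 and 0.01. Smo and Dhh stay above 0 in all 4 cases, and Ihh stays below 0.

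The untreated libraries lay further apart than the CCCP libraries for Shh, Hhip, Gli1 and Ptch1. Shh, Hhip, Gli1 and Ptch1 were 6.34-, 3.96-, 1.92- and 1.61-fold higher in untreated replicate 2 than in replicate 1. These 4 of 9 were at least 1.5-fold higher there, as were 8.76% of all genes tested. Dhh was at least 1.5-fold lower, as were 13.9%. In all, 5 of the 9 were at least 1.5-fold apart between the untreated replicates, against 22.6% of all genes. Between the CCCP replicates 1 of the 9, Dhh, was at least 1.5-fold apart, against 18.9% of all genes. With 1 library on each side these ratios compare libraries and carry no test. The genes that were higher there are thus a ligand and the targets Ptch1, Gli1 and Hhip, while the ratio of untreated replicate 2 to 1 was 1.11 for Smo, 0.891 for Gli2, 1.09 for Gli3 and 0.892 for Ihh.

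Markers of tissues that make Shh are given beside this difference, and their part in it was not tested. The 13 gut endoderm markers summed to 213 and 334 CPM without treatment and 303 and 426 CPM with CCCP. Their sum was highest in CCCP replicate 2, while 5 of the 12 tested were highest in untreated replicate 2, as were 21.5% of all genes. Their most abundant genes were Krt8 and Krt19, and 10 of the 12 tested were at least 1.5-fold higher in untreated replicate 2 than in replicate 1. The 10 notochord and floor plate markers summed to 202 and 269 CPM untreated and 218 and 208 CPM in CCCP, with Ntn1 and Spon1 the most abundant and Noto at 0 in every library. Of 9 tested, 5 were highest in untreated replicate 2, as were 21.5% of all genes. Named after their values were seen, Foxa2, a factor of endoderm and floor plate, had 1.66 and 4.71 CPM untreated and 1.22 and 1.27 CPM in CCCP. T, a notochord and tailbud factor, had 0.499 and 2.65 CPM untreated and 0.474 and 1.05 CPM in CCCP. Cdx2, a factor of the posterior embryo, had 0.439 and 2.94 CPM untreated and 1.07 and 1.87 CPM in CCCP.

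Schwann cell precursors, a lineage that can express Dhh, were read in the same way, and their part was not tested. The 9 Schwann cell precursor markers summed to 330.1 and 347 CPM untreated and 392 and 361 CPM in CCCP, with 3 markers above and 2 below in both CCCP libraries and none called by edgeR (adjusted p-values from 0.195). Ngfr and Fabp7 were the most abundant. Hepatic markers, of a tissue not named above as a source of ligand, stood apart between the groups, at 1746 and 1004 CPM untreated and 53.4 and 108 CPM in CCCP, with all 12 below both untreated libraries, Afp and Alb the most abundant, and edgeR adjusted p-values from 0.133 to 0.229. Their part in the values of the 9 genes was not tested.

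Per exon length the order of the 9 genes was Smo, Ptch1, Gli3, Gli1, Gli2, Shh, Hhip, Ihh and Dhh. Smo had a mean of 33.0 RPKM over the 4 libraries (28.5 to 37.4) and Ptch1 18.3 RPKM (15.5 to 25.9). Gli3 had 14.1 RPKM (12.5 to 15.2), Gli1 12.5 RPKM (9.45 to 18.1) and Gli2 8.74 RPKM (8.35 to 9.37). The means of the receptors and Gli factors were thus above those of the ligands, of which Shh had 4.45 RPKM (1.42 to 9.02), Ihh 0.514 RPKM (0.405 to 0.629) and Dhh 0.165 RPKM (0.0748 to 0.310). Hhip had 1.60 RPKM (0.860 to 3.40). Among neighbours in this order the ranges overlapped for Gli3 and Gli1, for Gli2 and Shh, and for Shh and Hhip, and they did not overlap for the others.

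**Figure D3:**
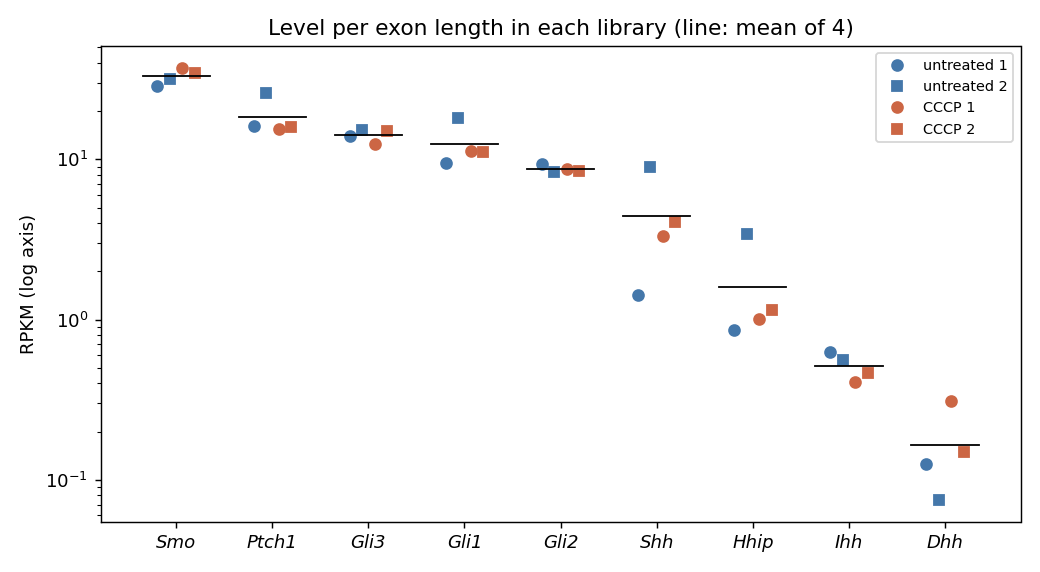
RPKM of each gene (log axis) in the 4 libraries, with a line at the mean, ordered by mean. Smo is highest at 33.0 RPKM and Dhh lowest at 0.165 RPKM, and Shh has the widest spread on this log scale, from 1.42 to 9.02 RPKM.

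The other genes of the pathway were read from 5 lists with 83 distinct genes, all of which passed the filter. None passed an adjusted p-value of 0.05 by edgeR, and at an unadjusted p under 0.05 there were 4 higher and 11 lower in CCCP, 18.1% of the 83 beside 14.6% of all genes. DESeq2 called 3 of the 83, Dync2h1, Cep290 and Pax9, each lower, where it called 2.99% of all genes and 2.7% as lower. Of the 83, 22 were above and 23 below in both CCCP libraries, and the same held for 24% and 24.8% of all genes, against which the counts of each list are to be read.

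In the list of 8 genes for ligand processing and release, 2 were above and 3 below in both CCCP libraries. Scube2, a secreted protein that helps release lipid-bearing ligand, had 15.2 and 27.6 CPM untreated and 12.8 and 5.10 CPM in CCCP, highest in untreated replicate 2 (log2 fold change -1.25, edgeR adjusted p 0.321). Its log2 fold change ran from -2.06 without CCCP replicate 1 to -0.73 without untreated replicate 2. Adam10, a membrane protease, had a log2 fold change of -0.32 and Disp2 of -0.53. Disp1, the transporter that exports ligand, had 0.21, Hhat, the acyltransferase that adds palmitate to ligands, 0.34, and Scube3 0.15. Their edgeR adjusted p-values ran from 0.319 to 0.619. Leaving out 1 library gave -0.88 to -0.23 for Disp2, 0.17 to 0.56 for Hhat, 0.01 to 0.29 for Scube3 and 0.11 to 0.32 for Disp1. With the GC trend removed Adam10 was at -0.09, Disp1 at 0.07 and Scube3 at 0.00. With the exon length trend removed Scube3 was at 0.48 and Disp2 at -0.35.

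In the list of 10 co-receptors and ligand-binding genes, 4 were above and 2 below in both CCCP libraries, with a median log2 fold change of 0.03. Gas1, a co-receptor, had 227 and 203 CPM untreated and 258 and 269 CPM in CCCP, a log2 fold change of 0.29. Gpc4, a glypican, had 0.28 and Mgrn1, a ubiquitin ligase that lowers Smo at the cell surface, 0.24. Mosmo, another gene that lowers Smo at the surface, had -0.38, Gpc6 -0.12 and Boc, a co-receptor, -0.05. The edgeR adjusted p-values of these 6 lay between 0.290 and 0.880. Gpc6 has an exon length of 31860 bases and was at 0.33 with the length trend removed. With the GC trend removed Gas1 was at 0.13, Mgrn1 at 0.10, Mosmo at -0.09, Gpc6 at -0.03 and Boc at -0.20. Leaving out 1 library gave 0.16 to 0.38 for Mgrn1.

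In the list of 24 genes of signal transduction and Gli regulation, 8 were above and 6 below in both CCCP libraries, with a median log2 fold change of 0.04. Cul3, the cullin that works with Spop in Gli turnover, had 174 and 182 CPM untreated and 137 and 132 CPM in CCCP, a log2 fold change of -0.40 (adjusted p in edgeR 0.240). Gsk3b, a kinase that primes Gli factors for processing, had -0.34 and Spop -0.16. Tulp3, a ciliary trafficking protein, had 0.29, Prkaca, the catalytic subunit of protein kinase A, 0.24, and Sufu, which holds Gli factors in the cytoplasm, 0.21. The edgeR adjusted p-values of the last 5 lay between 0.329 and 0.558. With the GC trend removed Cul3 was at -0.03, Prkaca at 0.10 and Sufu at 0.07, and with the exon length trend removed Gsk3b was at -0.12 and Prkaca at 0.15. Leaving out 1 library gave -0.43 to -0.20 for Gsk3b and -0.22 to -0.06 for Spop.

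The primary cilium, on which the pathway depends, was read through 22 genes, of which 7 were above and 9 below in both CCCP libraries, with a median log2 fold change of -0.08. Dync2h1, the heavy chain of the motor that returns cargo from the ciliary tip, had 68.4 and 66.4 CPM untreated and 35.6 and 38.6 CPM in CCCP. Its log2 fold change was -0.86 ± 0.117 (SE; adjusted p in edgeR 0.144), and DESeq2 called it. Cep290, a protein of the ciliary transition zone, had 28.1 and 24.5 CPM untreated and 11.8 and 10.9 CPM in CCCP. Its log2 fold change was -1.22 ± 0.167 (SE; adjusted p in edgeR 0.144), and it was called by DESeq2. Both have long exons, of 15561 and 11089 bases, and across all genes tested, which are not independent of each other, the fold changes were correlated with exon length (Spearman's rho -0.35). With that trend removed Dync2h1 was at -0.52 and Cep290 at -0.93, called in neither case by edgeR (adjusted p 0.311 and 0.226). They were at -0.69 and -0.84 with the GC trend removed, again not called by edgeR (adjusted p 0.260 and 0.338). Ift80 had -0.42, Ift122 0.35, Tmem231 0.45 and Tctn2 0.42, with edgeR adjusted p-values from 0.255 to 0.342. Ift80 was at -0.14 with the GC trend removed.

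Of 22 other genes reported as Hedgehog targets, 2 were above and 3 below in both CCCP libraries and 17 overlapped, with a median log2 fold change of -0.04. Pax9, a factor of the sclerotome and pharyngeal endoderm, had 11.2 and 10.7 CPM untreated and 4.41 and 5.98 CPM in CCCP. Its log2 fold change was -1.08 ± 0.241 (SE; adjusted p in edgeR 0.195), and DESeq2 called it too. Pax1, also of the sclerotome, had -0.60 and Bcl2 -0.46, while Hsd11b2 had 0.44 and Jag2 0.13 (edgeR adjusted p from 0.310 to 0.621). Leaving out 1 library gave -0.89 to -0.18 for Pax1, -0.66 to -0.27 for Bcl2, 0.10 to 0.93 for Hsd11b2 and 0.09 to 0.20 for Jag2. With the GC trend removed Hsd11b2 was at 0.28 and Jag2 at -0.06, and with the exon length trend removed Bcl2 was at -0.28. Highest in untreated replicate 2 were 6 of the 22, beside 21.5% of all genes. Of these, Ccnd1 had 126 and 253 CPM untreated and 151 and 167 CPM in CCCP, Foxf1 13.2 and 26.0 against 22.2 and 21.3, and Mycn 59.4 and 111 against 72.6 and 93.8. These 3 were chosen after their values were seen. Over the 22, the median log2 ratio of untreated replicate 2 to replicate 1 was 0.02. At least 1.5-fold higher in untreated replicate 2 than in replicate 1 were 4 of the 22. Others were lower there, with ratios of 0.656 for Osr1, 0.604 for Pax1 and 0.592 for Grem1.

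**Figure D4:**
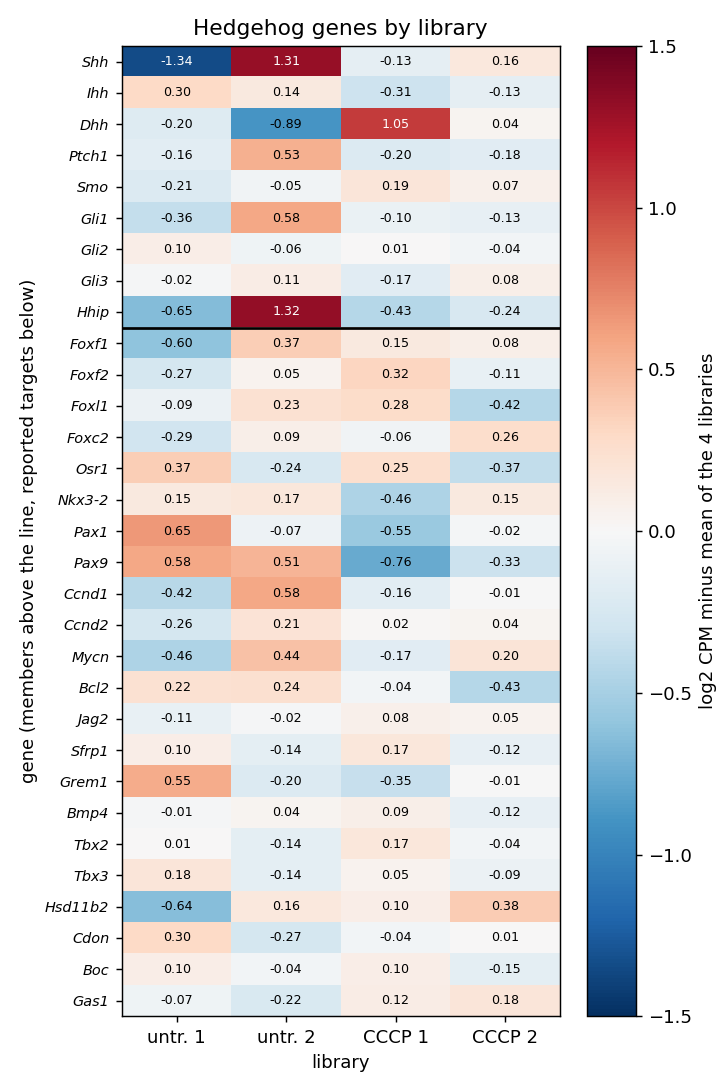
Log2 CPM minus the gene's mean over the 4 libraries (colour and printed value), for the 9 genes above the line and 22 reported targets below it. Untreated replicate 2 is above the mean for Shh, Ptch1, Gli1, Hhip, Ihh and Gli3, and below it for Dhh, Smo and Gli2. Of the reported targets, Gas1, Cdon, Boc, Osr1, Grem1, Sfrp1, Tbx2, Tbx3, Pax1 and Jag2 are below it there. The other reported targets, with Ccnd1, Foxf1 and Mycn among them, are above it.

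Likeness of pattern was measured as the root mean square difference of centred log2 CPM over the 4 libraries, among the 9 genes and the 83 of the 5 lists. Nearest to Ptch1 were Gli1 (0.118), Ccnd1 (0.158) and Lrp2 (0.168). Nearest to Gli1 were Ccnd1 (0.0725), Ptch1 (0.118) and Lrp2 (0.139). Nearest to Hhip were Shh (0.423), Ccnd1 (0.427) and Gli1 (0.437), all further away than the neighbours of Ptch1 and Gli1. The measure is not scaled to a gene's own spread. The SD of log2 CPM over the 4 libraries was 0.899 for Hhip, 0.356 for Ptch1 and 0.404 for Gli1. With 4 libraries this describes the libraries and has no test.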

How the data were processed

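RNA was selected with poly(A) beads and made into directional libraries, per the labels' protocols. The authors deposited raw counts of reads per gene, made with featureCounts 2.0.3 on mm10 with the NCBI RefSeq annotation, per the file headers. The command sets no strand option and no option to count pairs, so reads of a pair were counted singly and the 2 strands of a locus were not separated. HISAT2 and SAMtools are named, per the submitters' processing notes. The exon length in bases, also deposited by the authors, served for RPKM. The header of the first untreated file differs from its title by a letter, so samples were taken from the record of each file.

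Counts were tested with edgeR 4.0.16 (glmQLFit and glmQLFTest, R 4.3.3) with a term for the group, TMM scaling and the filterByExpr filter (at least 10 counts, at least 15 in total), over all 19837 genes, two-sided, with Benjamini-Hochberg adjustment. With 2 libraries a group, an exact permutation test cannot go below 0.333, so none is given. A count of 3, the floor of detection, was 0.0599 to 0.0827 CPM. Standard errors are the fold change over the square root of F. DESeq2 1.42.0, other scalings, no filter, each library left out, the replicate number as a block, and removal of trends with exon length and GC content (known for 90.4% of genes) were alternatives. The method was tested on simulated data. Named genes are the 9, up to 3 in each direction by p from each list, and the 2 most abundant of each marker list. An item of the lists was left out and is not reported here. The genes, lists and rule were chosen with earlier results of these data known.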

Additional observations from a re-analysis of the deposited data

How the results depend on the processing

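Genes called over the whole table were 0 by edgeR as described, with either other scaling, and with the exon length or the GC trend removed. DESeq2 called 594 and edgeR with no filter 1107, of 32261 tested; leaving out 1 library gave 10 to 46. Of the 9 Hedgehog genes, 1 (Hhip) was called with no filter, and 0 in the other 11 alternatives. Of the 83 other pathway genes, 3 were called by DESeq2 and 4 with no filter (these and Scube2). The replicate numbers of the labels mark nothing stated, and the deviations of same-numbered libraries from the mean of their group had a correlation of 0.36 across 19837 genes, with 2 pairs. With the replicate block 2118 genes (10.7%) were called, 0 of the 9 and 9 of the 83, and with the block and the exon length trend removed 1242 (6.26%), 0 of the 9 and 7 of the 83, with Dync2h1 (-0.51) and Cep290 (-0.93) among them. With the exon length trend removed, without and with the block, Gli2 was at 0.16 and 0.16, Gli3 at 0.13 and 0.13 and Gpc6 at 0.33 and 0.34; Jag2 was at -0.06 with the GC trend removed. Leaving out 1 library at a time gave log2 fold changes of -1.29 to 1.40 for Shh, -0.68 to 0.27 for Gli1, -0.71 to 0.00 for Ptch1, -1.65 to 0.36 for Hhip, -0.09 to 0.05 for Gli2, -0.21 to 0.04 for Gli3 and -0.18 to 0.08 for Boc. With the block, Shh was at -0.02. The cause was not tested. Counts under 100 limit Ihh and Dhh.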

Other observations

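Further marker lists were read in the same libraries. The 10 endothelial markers, with Cdh5 and Pecam1 the most abundant, summed to 551 and 719 CPM in untreated replicates 1 and 2. In CCCP replicates 1 and 2 they summed to 582 and 564 CPM. Of the 10, 9 were highest in untreated replicate 2. So were 5 of the 9 Hedgehog genes (Shh, Ptch1, Gli1, Gli3 and Hhip) and 21.5% of all genes. The 12 mesenchymal markers, led by Col3a1 and Col1a2, went the other way between the untreated libraries, at 5990 and 3483 CPM, with 4993 and 3827 CPM in CCCP. The 8 Sertoli and gonadal ridge markers, led by Sox9 and Wt1, summed to 186 and 149 CPM untreated and 183 and 156 CPM in CCCP. These sums were higher in replicate 1 of each group, as were Dhh and the mesenchymal and chondrogenic sums. The 10 chondrogenic markers, led by Col2a1 and Col11a1, summed to 624 and 493 CPM untreated and 530.5 and 523 CPM in CCCP. The 10 blood progenitor markers, led by Kit and Cd34, summed to 166 and 172 CPM untreated and 129.9 and 146 CPM in CCCP. None of these markers passed an adjusted p-value of 0.05 by edgeR, while at an unadjusted p under 0.05 there were 2 endothelial, 3 mesenchymal, 0 Sertoli and gonadal, 2 chondrogenic and 2 blood progenitor markers, beside 14.6% of all genes tested.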
